A study of Mus musculus with 19 samples.

Results

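The AP-1 family genes measured in these T cells were Fos, Fosb, Fosl2, Jun, Junb, Jund and Atf3. They were the 7 rows that carried those names among the 25639 genes of each deposited table, and all 7 were found in the table of CD8 T cells and in that of CD4 T cells. The cells had been sorted on CD45, CD3ε, CD4 and CD8α out of liver metastases, on day 30 of a model in which Venus-marked colorectal cancer cells are injected into the spleen. In Vav1CreTet2KO mice floxed Tet2 was combined with a Cre driven by Vav1, which is active across blood cells, so that cells other than T cells also lacked the gene. In Cd4CreTet2KO mice the Cre was driven by Cd4, which is active in developing T cells before they become CD8 or CD4 cells. Tet2fl/fl mice carried the floxed gene without Cre, so that the floxed allele was shared by all groups and a Cre was present in the knockouts only. CD8 cells were sequenced from 3 Vav1CreTet2KO, 4 Cd4CreTet2KO and 3 Tet2fl/fl animals, and CD4 cells from 3 animals of each genotype. Both cell types were taken from 8 of the 11 animals behind these 19 libraries. The age of the animals is not stated.

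AP-1 is a transcription factor made of paired basic leucine zipper proteins. JUN proteins pair with each other or with FOS proteins, FOS proteins need a JUN partner, and ATF3 pairs with JUN proteins or with itself. Most of the genes are switched on within minutes of T cell receptor, growth factor or stress signals, Fos mainly through ERK kinases and Jun mainly through JNK. In T cells AP-1 acts together with NFAT at cytokine genes, and pairs of BATF with JUN proteins bind beside IRF4.

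Fos and Jun are the founding pair of the family, and their levels varied side by side in CD4 cells, so the sequences in front of both genes are shown. They run 5′ to 3′ over 250 bases before and 50 after the transcription start, from RefSeq on GRCm38.p6.
Fos promoter: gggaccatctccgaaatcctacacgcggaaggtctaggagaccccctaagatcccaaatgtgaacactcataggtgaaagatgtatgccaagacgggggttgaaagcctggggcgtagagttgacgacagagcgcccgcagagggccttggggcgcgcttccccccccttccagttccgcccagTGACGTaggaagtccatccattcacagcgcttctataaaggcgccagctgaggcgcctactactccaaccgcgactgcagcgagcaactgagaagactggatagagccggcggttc
Jun promoter: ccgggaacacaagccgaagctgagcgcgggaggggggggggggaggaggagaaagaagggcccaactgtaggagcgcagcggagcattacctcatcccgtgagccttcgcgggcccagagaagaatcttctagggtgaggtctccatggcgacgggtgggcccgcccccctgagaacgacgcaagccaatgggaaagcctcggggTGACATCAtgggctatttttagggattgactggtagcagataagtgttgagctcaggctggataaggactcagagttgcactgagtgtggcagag
The Fos window lies on the plus strand at chr12:85473640-85473939 and the Jun window on the minus strand at chr4:95052173-95052472. Capitals mark the matches found on either strand to the short cAMP response element core TGACGT and to TGACATCA, an element known from the human JUN promoter. The core began 66 bases before the Fos start, and TGACATCA began 45 bases before the Jun start. Of 32851 RefSeq mouse promoters of the same length, 7.51% held TGACGT and 3.62% held TGACATCA. The full element TGACGTCA, which contains the core and was in 1.79% of promoters, was in none of the windows of the 7 genes. The AP-1 consensus TGANTCA was in none of them either, against 7.81% of all promoters, and nor was the CArG box that serum response factor binds, against 1.63%. The Atf3 window held TGACGT on the opposite strand, beginning 8 bases before its start. The windows end 250 bases before the start, so elements further upstream were not searched, and absence here does not mean absence from the gene's control region. These matches describe letters in a window of 300 bases and no binding was measured.

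The libraries had between 707866 and 20327809 reads on genes, and the shallowest was CD4 Vav1CreTet2KO replicate 1, in which Fos had 92 reads. The next shallowest had 7501026. Values are RPKM, reads divided by exon length and by the reads of the library, which corrects for gene length and so lets genes be compared with each other. Tet2 itself was listed at 2.93 to 6.28 RPKM in CD8 Vav1CreTet2KO, 3.01 to 7.57 in CD8 Cd4CreTet2KO and 6.57 to 8.06 in CD8 Tet2fl/fl cells. In CD4 cells Tet2 was at 2.77 to 5.65, 4.53 to 7.28 and 3.87 to 7.02 RPKM in Vav1CreTet2KO, Cd4CreTet2KO and Tet2fl/fl, and a value over the whole gene does not show whether the floxed part was deleted. Cd8a and Cd8b1 together were at 231 to 428 RPKM in CD8 libraries and at most 8.01 in CD4 libraries, while Cd4 was at 39.5 to 122.4 RPKM in CD4 libraries and at most 7.68 in CD8 libraries. Cd4CreTet2KO replicates 1 and 2 of CD8 cells stood apart, with 262 and 137 RPKM over 10 macrophage and monocyte markers and none of them at 0, against 5.03 and 8.46 RPKM in replicates 3 and 4. Neutrophil markers set the same libraries apart, with S100a9 at 57.4 and 33.1 RPKM against 0.115 and 0.235. Cd4 was at 7.68 and 2.27 RPKM against 0 and 0.0158. B cell markers summed to 1.08 to 14.9 RPKM over the group. The name macrophage-rich, used below for replicates 1 and 2, thus does not single out 1 cell type. In CD8 Vav1CreTet2KO replicate 1, 50.6% of low read numbers were odd, against 13.1% to 30.7% in the other 18 libraries, and the reason was not tested. The column names mark the reads as trimmed in the CD4 table only, so levels set across the tables may also carry a difference in processing.

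Junb was the most abundant member in 17 of the 19 libraries, at 146 to 684 RPKM, and by group means Jun and Jund came next in all 6 groups, though not in every library. Fos was at 23.6 to 287 RPKM, Fosb at 24.7 to 154, Fosl2 at 8.22 to 91.0 and Atf3 at 5.17 to 46.3. JUN genes made up 63.3% to 83.1% of the summed RPKM of the 7 genes in every library, FOS genes 16.2% to 32.1% and Atf3 0.393% to 4.62%. Read over the plot of levels by library, the genotypes stood furthest apart for Jun, whose Tet2fl/fl values lay above all knockout values of the same cell type. Fos stood apart in CD4 cells and not in CD8 cells. In bulk libraries such as these, fewer cells that use a gene and less RNA per cell cannot be told apart.

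**Figure D1:**
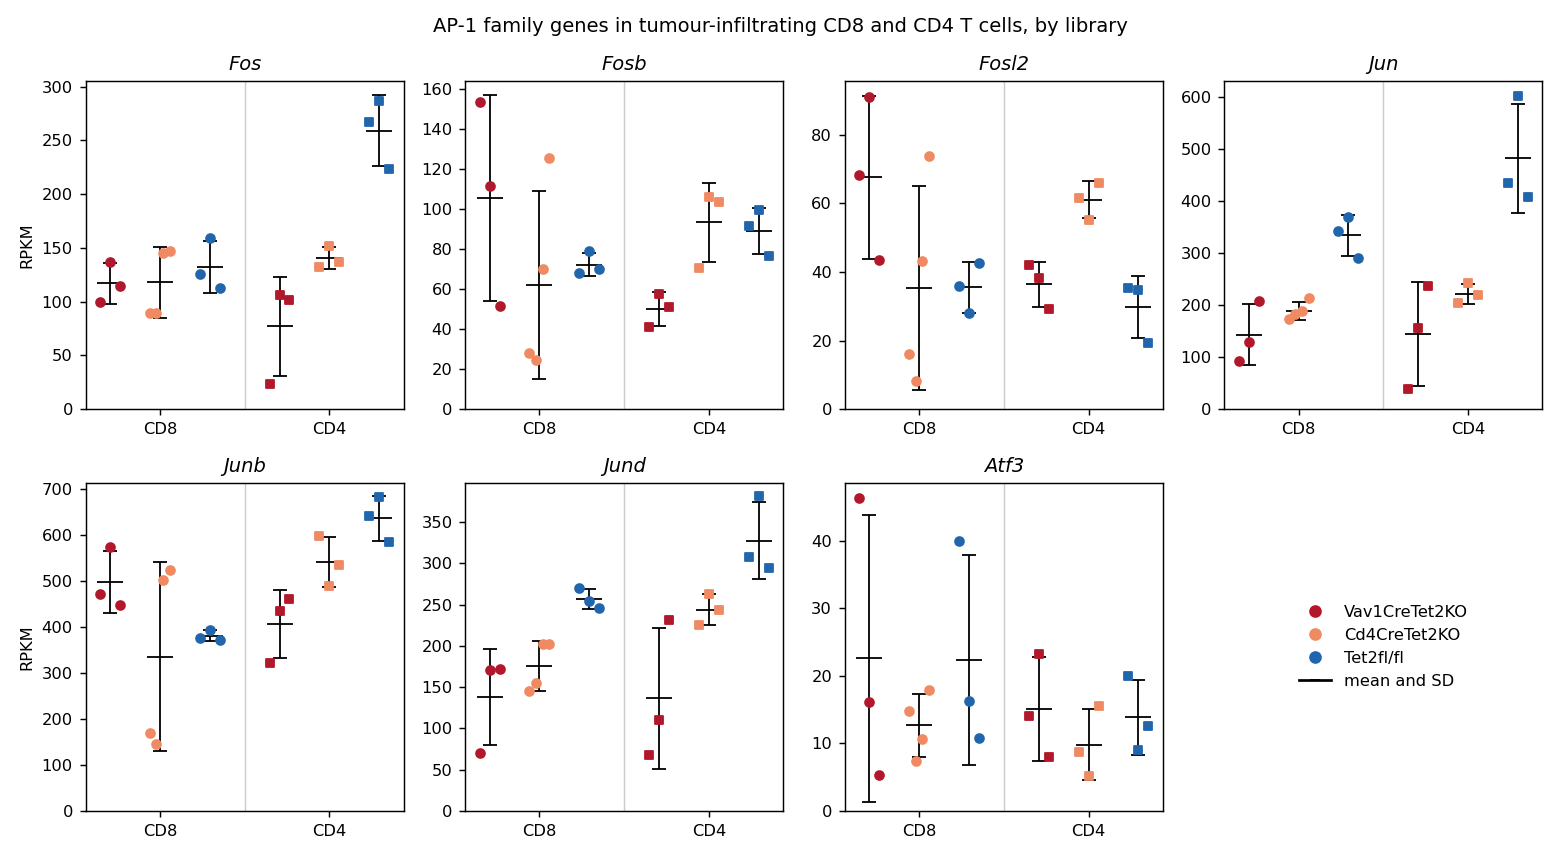
RPKM of each AP-1 family gene (vertical axis) in every library of CD8 cells (circles) and CD4 cells (squares), by genotype, with the mean and SD of each group. Jun was at 92.2 to 214 RPKM in CD8 knockout libraries against 291 to 370.1 in CD8 Tet2fl/fl, and Fos at 23.6 to 152 RPKM in CD4 knockout libraries against 223 to 287 in CD4 Tet2fl/fl.

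In CD8 cells, Jun and Jund lay below every Tet2fl/fl library in Vav1CreTet2KO, by 2.45 and 2.00 times in the fit, while Fosl2 and Junb lay above every Tet2fl/fl library. None of these differences passed the threshold, an adjusted p under 0.05 over all genes tested. By limma's test on log2(RPKM + 1), 0 of the 7 genes were called, against 1.46% of the 10224 genes tested (0.45% higher and 1.01% lower). At an unadjusted p under 0.05 the count was 2, Jun and Jund, against 17.3% of all genes. On reads recovered from the RPKM, edgeR's quasi-likelihood test called 0 of the 7 and DESeq2 called 1, Jun, among 496 genes higher and 435 lower of 17981. Of the 7 genes, 2 had all knockout values below Tet2fl/fl, as had 12.9% of all genes, and 2 had all values above it, as had 6.92%. The median log2 fold change over the 7 genes was -0.17, beside -0.11 over all genes tested.

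In CD8 cells of Cd4CreTet2KO mice, the fitted differences of all 7 genes were negative, and Jun and Jund again lay below every Tet2fl/fl library. Limma called 0 of the 7 genes, against 0.567% of 10224 (0.0782% higher and 0.489% lower). Jun alone had an unadjusted p under 0.05, as had 12.4% of all genes, and both edgeR and DESeq2 on recovered reads called 0. The count of 2 genes with no overlap, both lower, stands beside 14% of all genes, and none of the 7 lay wholly above Tet2fl/fl, beside 3.85% of all genes. The median over the 7 genes was -0.52, beside -0.15 over all genes tested. Dividing the RPKM by size factors moved that median of all genes to 0.0031, and without both libraries rich in macrophage markers Fos, Fosb, Fosl2 and Junb had positive differences of 0.16, 0.38, 0.68 and 0.43.

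In CD4 cells of Vav1CreTet2KO mice, Fos, Jun, Jund, Fosb and Junb lay below every Tet2fl/fl library, with fitted levels 3.11 times lower for Fos and 3.05 times lower for Jun. EdgeR's quasi-likelihood test on the deposited counts called 0 of the 7 genes after Benjamini-Hochberg adjustment, against 0.00738% of 13554 genes, which was 1 gene. These 5 genes had an unadjusted p under 0.05, as had 11.9% of all genes tested, and DESeq2 called 1 of them, Fos, while limma on log2(RPKM + 1) called 0. No overlap with lower values was found for 12.5% of all genes, and none of the 7 lay wholly above Tet2fl/fl, as did 3.19%. In the authors' deposited table the false discovery rate was 0.0115 for Fos and 0.0158 for Jun in this comparison, with log2 fold changes of -1.64 and -1.62. Leaving out Vav1CreTet2KO replicate 3 gave 4 called genes (Fos, Jun, Jund and Junb), leaving out the shallow replicate 1 gave 0, and using no filter on low counts gave 3 (Fos, Jun and Jund). Calls over all genes moved with these settings, to 396 higher and 423 lower of 14409 without replicate 3, 9 and 10 of 14534 without replicate 1, 274 and 109 of 20159 with no filter and 328 and 247 of 20159 with DESeq2. The median over the 7 genes was -0.72, beside -0.16 over all genes, and -0.29 over all genes when RPKM was used in place of TMM-scaled counts.

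In CD4 cells of Cd4CreTet2KO mice, Fosl2 lay above every Tet2fl/fl library, while Jun, Fos and Jund lay below. EdgeR's test called 0 of the 7 genes, against 0.0295% of 13554 (0.00738% higher and 0.0221% lower), and DESeq2 and limma on RPKM called 0 as well. Fosl2 and Jun had an unadjusted p under 0.05, as had 2.5% of all genes. The single gene that lay wholly above stands beside 5.83% of all genes, and the 3 that lay wholly below beside 7.93%. The median over the 7 genes was -0.32, beside 0.00298 over all genes. The comparisons of both knockouts within a cell type share the same 3 Tet2fl/fl libraries, so that their agreement in direction is not independent.

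**Figure D2:**
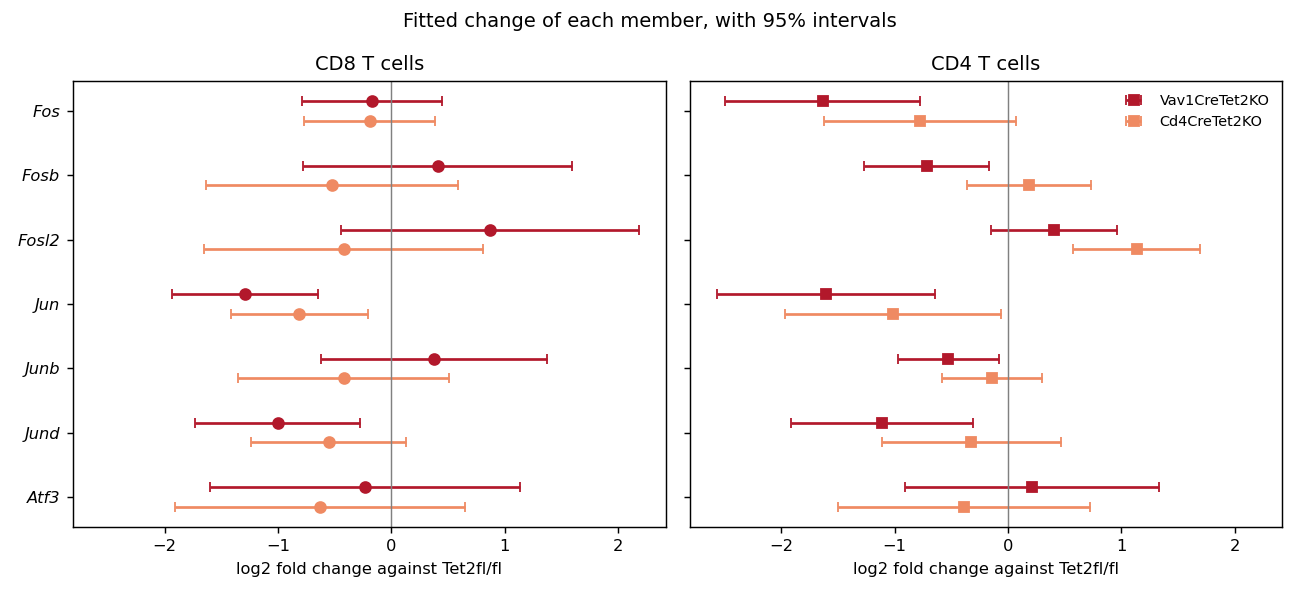
Fitted log2 fold change against Tet2fl/fl (horizontal axis) of each gene in CD8 cells (left) and CD4 cells (right), for Vav1CreTet2KO and Cd4CreTet2KO, with 95% intervals. All 4 differences of Jun were negative, between -1.61 and -0.81, and their intervals did not reach 0, while those of Atf3 spanned 0 throughout. The intervals are per gene and not adjusted over all genes, and no difference of Jun passed after that adjustment.

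Jun encodes the family's archetypal activator. In CD8 cells it was at 92.2, 129 and 207 RPKM in Vav1CreTet2KO replicates 1 to 3, at 174, 183, 189 and 214 in Cd4CreTet2KO replicates 1 to 4, and at 342, 370.1 and 291 in Tet2fl/fl. No knockout library reached the lowest Tet2fl/fl library, and the Cd4CreTet2KO values were the closest together. The log2 fold change was -1.29 (SE 0.30, limma, adjusted p = 0.0539) in Vav1CreTet2KO and -0.81 (SE 0.28, adjusted p = 0.227) in Cd4CreTet2KO. The call in Vav1CreTet2KO turned on the setting: without Vav1CreTet2KO replicate 3 the difference was -1.60 with an adjusted p of 0.0331, and DESeq2 on recovered reads gave -1.07 with 0.0480. Without replicate 1 it was -1.02 with 0.102. In Cd4CreTet2KO, a fit of only the compared groups gave an adjusted p of 0.0457, when 54 genes were called higher and 232 lower of 9738. Without both macrophage-rich libraries the difference there was -0.73.

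In CD4 cells Jun was at 39.5, 156 and 237 RPKM in Vav1CreTet2KO, at 204, 243 and 219 in Cd4CreTet2KO and at 435, 603 and 409 in Tet2fl/fl. As in CD8 cells, the groups of knockout libraries lay below all control libraries, and replicate 1 of Vav1CreTet2KO, the shallow library, was the lowest with 233 reads on Jun. In the fit, Jun differed on the log2 scale by -1.61 (SE 0.45, edgeR, adjusted p = 0.206) in Vav1CreTet2KO and -1.01 (SE 0.44, adjusted p = 1.00) in Cd4CreTet2KO. Without that library the Vav1CreTet2KO difference was -1.17 (adjusted p = 0.128), and without replicate 3 it was -2.28 (0.0147). In Cd4CreTet2KO, Jun was called only where no filter on low counts was used (adjusted p = 0.0111). Over the 6 groups, the mean of Jun was highest in CD4 Tet2fl/fl (482 ± 105 RPKM, SD, n = 3), then in CD8 Tet2fl/fl (334 ± 39.9, n = 3), and the SD ranges of these neighbours did not meet. The 4 knockout groups followed with means of 143 to 222 RPKM, the gap below CD8 Tet2fl/fl again exceeded both SDs, and each neighbour among the knockouts overlapped with the next.

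Jund encodes the JUN protein that is present in resting cells and is known to restrain proliferation in fibroblasts. In CD8 cells it was at 70.4, 171 and 172 RPKM in Vav1CreTet2KO, at 146, 155, 202 and 203 in Cd4CreTet2KO and at 269.6, 254 and 245 in Tet2fl/fl. Control values lay close together and above every knockout value. On the log2 scale, Jund differed by -1.0 (SE 0.34, limma, adjusted p = 0.158) in Vav1CreTet2KO, with -0.58 when replicate 1 was left out, and -0.55 (SE 0.31, adjusted p = 0.520) in Cd4CreTet2KO. In CD4 cells Jund was at 67.5, 110.1 and 232 RPKM in Vav1CreTet2KO, at 225, 263 and 243 in Cd4CreTet2KO and at 307, 381 and 294 in Tet2fl/fl. The order of the groups was as for Jun, with Cd4CreTet2KO between the others, although replicate 3 of Vav1CreTet2KO lay within the Cd4CreTet2KO range. The log2 fold change was -1.11 (SE 0.37, edgeR, adjusted p = 0.287) in Vav1CreTet2KO, which was -1.84 with an adjusted p of 0.00330 when replicate 3 was left out and -0.80 with 0.343 when replicate 1 was left out. It was -0.32 (SE 0.37, adjusted p = 1.00) in Cd4CreTet2KO.

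Junb encodes a JUN protein that activates more weakly than c-JUN and is known to act in T helper cell differentiation. In CD8 cells it was at 471, 574 and 448 RPKM in Vav1CreTet2KO, at 169, 146, 503 and 523 in Cd4CreTet2KO and at 375, 395 and 373 in Tet2fl/fl. Vav1CreTet2KO libraries were thus all above the controls, while Cd4CreTet2KO libraries lay on both sides of them, the low pair being the macrophage-rich replicates 1 and 2. On the log2 scale Junb differed by 0.38 (SE 0.46, limma, adjusted p = 0.699) in Vav1CreTet2KO and -0.42 (SE 0.43, adjusted p = 0.756) in Cd4CreTet2KO. In CD4 cells Junb was at 322, 436 and 462 RPKM in Vav1CreTet2KO, at 599, 490.1 and 535 in Cd4CreTet2KO and at 641, 684 and 585 in Tet2fl/fl. Here Vav1CreTet2KO was below all controls, opposite to CD8 cells, and the Cd4CreTet2KO values overlapped with the control values. The log2 fold change was -0.53 (SE 0.21, edgeR, adjusted p = 0.351) in Vav1CreTet2KO and -0.14 (SE 0.21, adjusted p = 1.00) in Cd4CreTet2KO. Between the cell types, the Vav1CreTet2KO differences of Junb differed by 1.04 (SE 0.55, limma on all 19 libraries, adjusted p = 0.567), which did not pass.

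Fos encodes the fast and short-lived partner of JUN proteins. In CD8 cells it was at 99.3, 137 and 115 RPKM in Vav1CreTet2KO, at 89.1, 89.4, 146 and 148 in Cd4CreTet2KO and at 125, 159 and 112 in Tet2fl/fl. The 3 genotypes overlapped. The log2 fold change was -0.17 (95% interval -0.79 to 0.45, limma, adjusted p = 0.787) in Vav1CreTet2KO and -0.19 (-0.77 to 0.39, adjusted p = 0.83) in Cd4CreTet2KO, where it was 0.00649 after division by size factors. In CD4 cells Fos was at 23.6, 106 and 101.1 RPKM in Vav1CreTet2KO, at 132, 152 and 137 in Cd4CreTet2KO and at 267, 287 and 223 in Tet2fl/fl. All 3 groups were separate from each other, with Vav1CreTet2KO lowest and Tet2fl/fl highest. The log2 fold change was -1.63 (SE 0.40, edgeR, adjusted p = 0.153) in Vav1CreTet2KO and -0.78 (SE 0.39, adjusted p = 1.00) in Cd4CreTet2KO. The Vav1CreTet2KO value was -1.22 (adjusted p = 0.0657) without replicate 1, -1.97 (0.0278) without replicate 3 and -1.66 (0.0236) with DESeq2. CD4 Tet2fl/fl held the highest mean of the 6 groups, at 259 ± 32.7 RPKM (SD, n = 3), the next was CD4 Cd4CreTet2KO at 140.5 ± 10.3, and the remaining 4 groups overlapped with their neighbours.

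Fosb encodes a FOS protein with a longer-lived splice form, ΔFOSB, which the gene values do not separate. In CD8 cells it was at 154, 111 and 51.5 RPKM in Vav1CreTet2KO, at 28.0, 24.7, 70.0 and 126 in Cd4CreTet2KO and at 67.9, 78.9 and 69.8 in Tet2fl/fl. The control libraries lay close together and both knockout groups spread to either side of them. In CD4 cells Fosb was at 41.2, 57.7 and 51.2 RPKM in Vav1CreTet2KO, at 70.7, 106 and 104 in Cd4CreTet2KO and at 91.4, 99.4 and 76.5 in Tet2fl/fl. Vav1CreTet2KO values were lower than all others, with a log2 fold change of -0.72 (SE 0.26, edgeR, adjusted p = 0.311) against Tet2fl/fl. Its other log2 fold changes against Tet2fl/fl lay between -0.52 and 0.41, and none passed.

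Fosl2 encodes FRA2, a FOS protein without the strong activation domain of c-FOS, and is induced later than Fos. In CD4 cells it was at 42.0, 38.1 and 29.2 RPKM in Vav1CreTet2KO, at 61.7, 55.3 and 66.0 in Cd4CreTet2KO and at 35.4, 34.8 and 19.4 in Tet2fl/fl. Cd4CreTet2KO stood above both other groups, while those 2 overlapped. The Cd4CreTet2KO log2 fold change was 1.14 (SE 0.26, edgeR, unadjusted p = 0.000678, adjusted p = 0.991), and it was the eighth smallest p of the 13554 genes. It was called only where no filter on low counts was used (1.13, adjusted p = 0.0424), when 7 genes were called higher and 30 lower of 20159. In CD8 cells Fosl2 was at 68.4, 91.0 and 43.4 RPKM in Vav1CreTet2KO, at 16.2, 8.22, 43.1 and 73.8 in Cd4CreTet2KO and at 35.9, 28.0 and 42.6 in Tet2fl/fl. All Vav1CreTet2KO libraries were above the controls, replicate 3 by a small margin, which limma put at 0.87 on the log2 scale (SE 0.61, adjusted p = 0.480). The Cd4CreTet2KO libraries held the lowest values of the gene, again in replicates 1 and 2.

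Atf3 encodes a stress-induced factor that mostly represses. It ranged over 5.29 to 46.3 RPKM in CD8 Vav1CreTet2KO, 7.33 to 17.9 in CD8 Cd4CreTet2KO and 10.8 to 39.9 in CD8 Tet2fl/fl. In CD4 cells the ranges were 7.99 to 23.3, 5.17 to 15.5 and 9.06 to 19.9 RPKM for Vav1CreTet2KO, Cd4CreTet2KO and Tet2fl/fl. Groups overlapped in every comparison, and the log2 differences against Tet2fl/fl lay between -0.63 and 0.21. With SDs of up to 21.3 RPKM around a mean of 22.6, in CD8 Vav1CreTet2KO, Atf3 was the most variable of the 7 genes relative to its mean there.

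Between the knockouts, most of the 7 genes were lower in CD4 cells of Vav1CreTet2KO than of Cd4CreTet2KO mice. EdgeR's test called 0 of the 7, against 0.0664% of 13554 genes (0.0443% higher and 0.0221% lower), with 3 (Fosb, Fosl2 and Fos) at an unadjusted p under 0.05, as had 10.7% of all genes. DESeq2 and limma on RPKM called 0 as well, and without Vav1CreTet2KO replicate 3 the count was 1, Jund, when 348 genes were called higher and 371 lower of 14409, against 6 and 3 with all libraries. Fos, Fosb, Fosl2 and Junb had all Vav1CreTet2KO values below all Cd4CreTet2KO values, as had 15.3% of all genes, and none of the 7 lay wholly above, as did 4.14%. Their log2 fold changes were -0.86 (SE 0.39), -0.90 (SE 0.26), -0.73 (SE 0.26) and -0.39 (SE 0.21), with adjusted p of 0.463, 0.202, 0.339 and 0.528, beside a median of -0.19 over all genes. In CD8 cells limma called 0 of the 7 genes, against 0% of 10224, and all 7 overlapped between the knockouts, whereas 2.07% of all genes lay wholly above and 2.46% wholly below. Fosl2 alone had an unadjusted p under 0.05, as had 6.35% of all genes, at 1.29 (SE 0.57, adjusted p = 0.721), and edgeR and DESeq2 on recovered reads called 0. That difference was 0.19 without both macrophage-rich Cd4CreTet2KO libraries.

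Between the cell types, with the genotypes averaged, none of the 7 genes passed the test. Limma on all 19 libraries called 0 of the 7 genes in CD8 against CD4 cells, against 5.98% of 11121 genes (3.37% higher and 2.61% lower), and 0 at an unadjusted p under 0.05, beside 17.6%. This fit took the libraries as independent, although 8 of the 11 animals gave both cell types. With the animal as block, 0 of the 7 were called as well, when 466 genes were called higher and 369 lower, against 375 and 290 without it. The largest difference was that of Junb, -0.45 (95% interval -0.91 to 0.0068, adjusted p = 0.293), and the intervals of Fos, Fosb, Fosl2, Jun and Jund lay within -0.69 and 0.58. Atf3 was at 0.37, with an interval of -0.34 to 1.09. Differences within these intervals were not detectable here. The effect of Vav1CreTet2KO was compared between the cell types in the same fit, where 0 of the 7 genes were called, against 0% of 11121. Fos had the largest such difference, 1.83 (SE 0.57, unadjusted p = 0.00481, adjusted p = 0.361), and was the only member with an unadjusted p under 0.05, as had 9.21% of all genes. Leaving out both libraries of the animal that gave the shallow CD4 library, an alternative chosen after seeing the data, gave 1.25 for Fos. For Cd4CreTet2KO, 0 of the 7 were called, against 0.0629% of all genes (0.018% higher and 0.045% lower), and 0 had an unadjusted p under 0.05, beside 5.72%. Its largest value was that of Fosl2, -1.47 (SE 0.72, adjusted p = 0.900).

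Junb and Jun took different shares of the AP-1 pool in Vav1CreTet2KO and Tet2fl/fl cells. The 7 genes summed to 1002 to 1229 RPKM in CD8 Vav1CreTet2KO, 613 to 1305 in CD8 Cd4CreTet2KO and 1145 to 1301 in CD8 Tet2fl/fl. Junb made up 43.0% to 47.1% of the sum in CD8 Vav1CreTet2KO, and 29.9% to 32.6% in CD8 Tet2fl/fl. Jun made up 9.20% to 19.9% in CD8 Vav1CreTet2KO and 25.4% to 28.4% in CD8 Tet2fl/fl. The ratio of Junb to Jun was 5.11, 4.44 and 2.16 in CD8 Vav1CreTet2KO, against 1.10, 1.07 and 1.28 in CD8 Tet2fl/fl. CD8 Cd4CreTet2KO libraries formed pairs, with ratios of 0.972 and 0.80 in the macrophage-rich replicates 1 and 2 and of 2.66 and 2.44 in replicates 3 and 4. In CD4 cells the sums were 550.4 to 1121 RPKM in Vav1CreTet2KO, 1301 to 1319.7 in Cd4CreTet2KO and 1619 to 2098 in Tet2fl/fl, so that here the summed RPKM also stood apart by genotype. Sums of RPKM also move with the share of the scaling reads that fell on genes. In CD4 cells that share was 38.3% to 51.4% in Vav1CreTet2KO, 38.3% to 45.8% in Cd4CreTet2KO and 42.6% to 46.4% in Tet2fl/fl. The CD4 ratio of Junb to Jun was 8.16, 2.79 and 1.95 in Vav1CreTet2KO, 2.94, 2.02 and 2.44 in Cd4CreTet2KO and 1.47, 1.13 and 1.43 in Tet2fl/fl. In both cell types Tet2fl/fl libraries therefore held Junb and Jun in more even amounts than Vav1CreTet2KO libraries did, and these ratios were formed after the values were seen and were not tested.

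**Figure D3:**
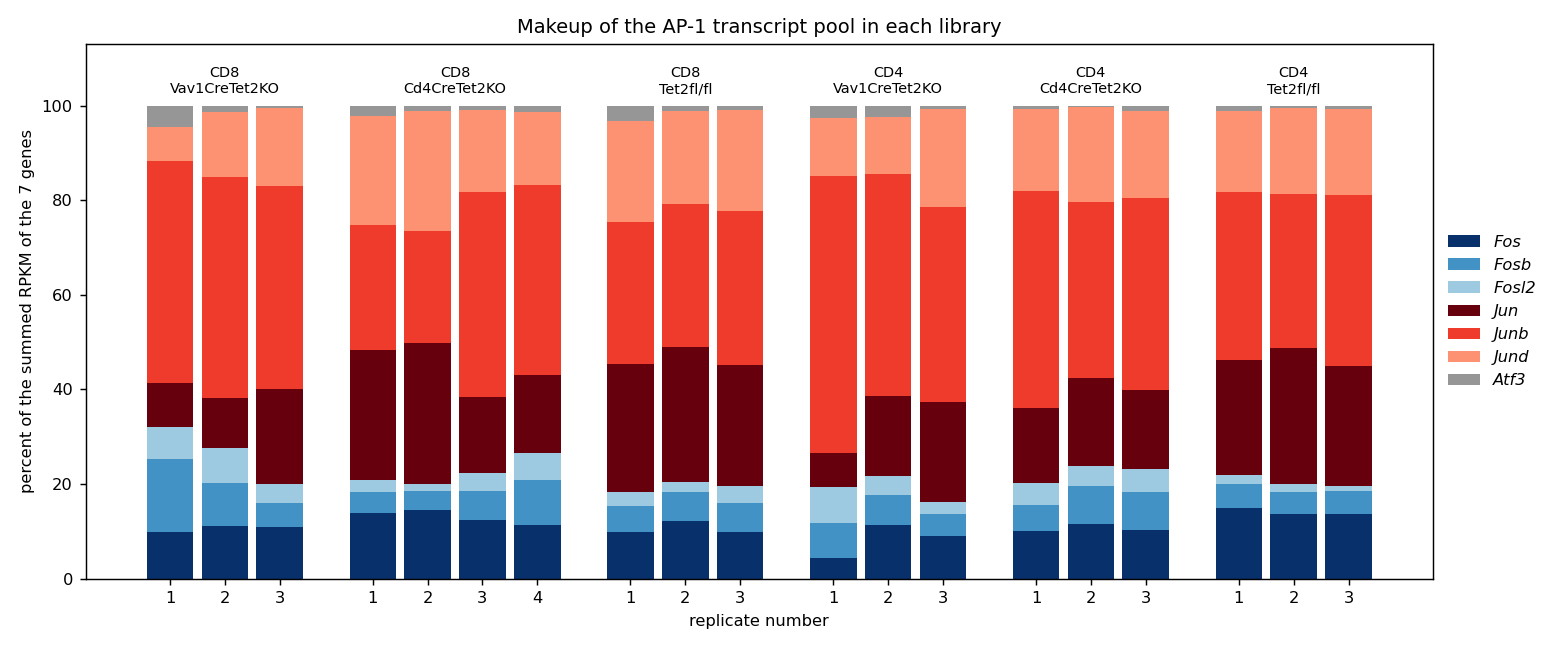
Share of each gene in the summed RPKM of the 7 AP-1 family genes (vertical axis, percent), 1 bar per library, ordered by cell type and genotype. Jun took 7.18% to 21.2% of the sum in CD4 Vav1CreTet2KO libraries, against 24.2% to 28.7% in CD4 Tet2fl/fl.

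Across libraries, the genes moved together in different ways in the 2 cell types. Over the 10 CD8 libraries, Pearson's r of log2(RPKM + 1) was 0.90 between Jun and Jund, 0.94 between Junb and Fosl2 and 0.91 between Fosb and Fosl2, but -0.07 between Jun and Junb. Over the 9 CD4 libraries, r was 0.98 between Fos and Jun, 0.94 between Fos and Junb and 0.93 between Jun and Junb, while Fosl2 reached no more than 0.26 with any other member. In CD8 libraries Jun and Jund thus varied together, as did Junb, Fosb and Fosl2, and Fos reached 0.74 with Junb. In CD4 libraries Fos and the 3 JUN genes varied together, and Fosb was at 0.73 to 0.80 with each of them. The macrophage-rich Cd4CreTet2KO replicates 1 and 2 held the lowest Junb, Fosb and Fosl2 of the CD8 libraries. The shallow Vav1CreTet2KO replicate 1 held the lowest Fos, Fosb, Jun, Junb and Jund of the CD4 libraries. The points of each correlation share library depth and genotype, and the genotypes form clusters, so these values describe the libraries and carry no test.

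**Figure D4:**
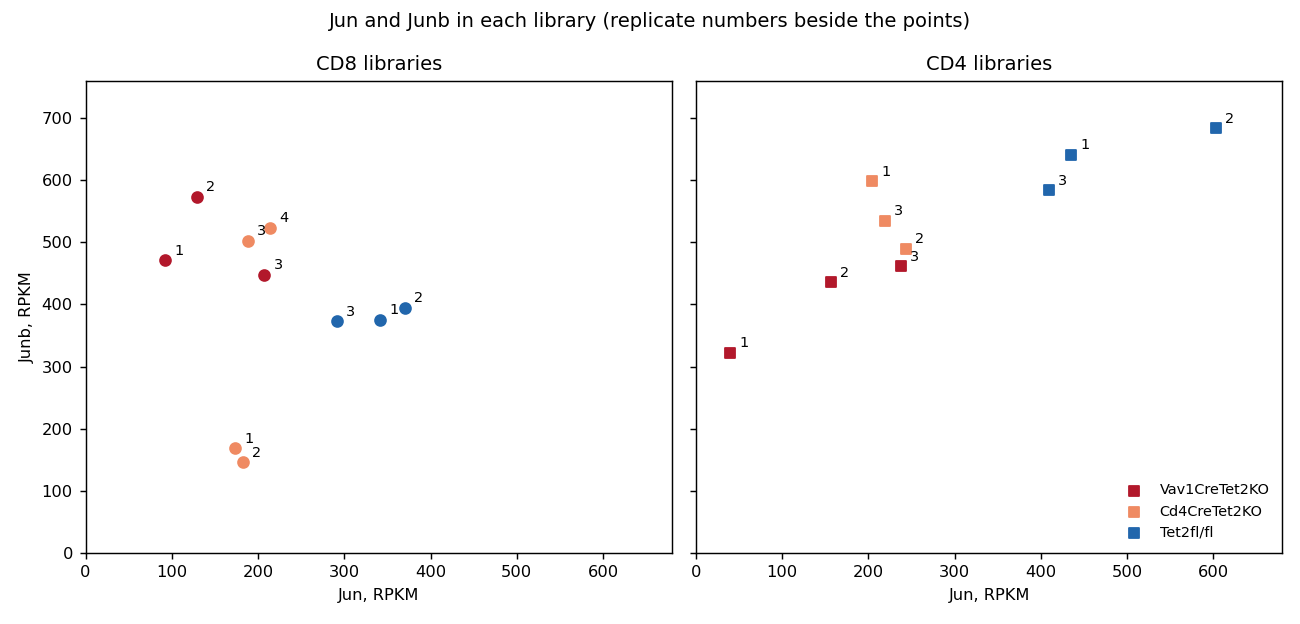
RPKM of Junb (vertical axis) against RPKM of Jun (horizontal axis) in each CD8 library (left) and CD4 library (right), coloured by genotype, with replicate numbers. Tet2fl/fl libraries lie to the right in both panels, and CD8 Cd4CreTet2KO replicates 1 and 2, at 169 and 146 RPKM of Junb, lie below all others.

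Of 9494 genes compared, Kif21b, a kinesin motor, had the pattern most like that of Fos, with r of 0.92 over the CD8 libraries and 0.91 over the CD4 libraries. Camk2g, Zbtb17, Gm37790 and Zscan2 followed, each with an r of at least 0.82 in both. The genes most like Junb were Atf4 (0.90 and 0.91), another basic leucine zipper factor, and Ppp1r15a (0.96 and 0.90), a stress-induced phosphatase subunit. Gramd1a and Nr4a1 came next, each with an r of at least 0.89 in both cell types. Likeness was taken as the lower of the 2 correlations, over 10 CD8 and 9 CD4 libraries.

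Among genes upstream of AP-1, 1 passed the test in any comparison against Tet2fl/fl. Over all genes tested, 1.46% were called in CD8 Vav1CreTet2KO, 0.567% in CD8 Cd4CreTet2KO, 0.00738% in CD4 Vav1CreTet2KO and 0.0295% in CD4 Cd4CreTet2KO. The medians over all genes were -0.11, -0.15, -0.16 and 0.00298 in that order. Of 17 measured genes of the RAS, ERK and SRF route to Fos, limma and edgeR called 0 in each of the 4 comparisons against Tet2fl/fl, with medians of -0.24 in CD8 Vav1CreTet2KO, -0.26 in CD8 Cd4CreTet2KO, -0.19 in CD4 Vav1CreTet2KO and -0.00937 in CD4 Cd4CreTet2KO. Of 13 measured genes of the JNK and p38 route to Jun, 1 was lower in CD8 Vav1CreTet2KO and none passed in the other comparisons. It was Gadd45g, an activator of the p38 and JNK pathway in T cells, at 4.00, 9.30 and 3.26 RPKM in CD8 Vav1CreTet2KO against 35.0, 26.4 and 28.1 in CD8 Tet2fl/fl. Every knockout library lay below every control, and the log2 fold change was -2.34 (SE 0.33, limma, adjusted p = 0.00980). MAP kinase phosphatases and feedback inhibitors, of which 13 were tested in CD8 and 14 in CD4 cells, had 0 called, although 10 of 13 in CD8 Vav1CreTet2KO and 12 of 13 in CD8 Cd4CreTet2KO had negative values, with medians of -0.80 and -0.73. In CD4 cells 8 of 14 were negative in both knockouts, with medians of -0.41 in Vav1CreTet2KO and -0.03 in Cd4CreTet2KO.

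Among the genes that act with AP-1 or beside it, few passed, to be read beside the shares and medians of all genes given above. Other basic leucine zipper factors that pair or compete with FOS and JUN had 0 called of 17 tested in CD8 and of 18 tested in CD4 cells, with medians between -0.23 and 0.067. NFAT, calcineurin and IRF partners had 0 called of 10 in all 4 comparisons. Other immediate early genes had 0 called of 26 in CD8 and 27 in CD4 cells. Their median was 0.30 in CD8 Vav1CreTet2KO, with 18 of 26 positive, beside -0.11 over all genes. It was -0.43 in CD4 Vav1CreTet2KO, with 22 of 27 negative, beside -0.16 over all genes. In CD8 Cd4CreTet2KO the median was -0.28, with 20 of 26 negative, beside -0.15 over all genes. In CD4 Cd4CreTet2KO it was -0.065, with 14 of 27 negative, beside 0.00298 over all genes. Junb had the sign of this median in each comparison, but the members did not all do so. In CD8 Vav1CreTet2KO 4 of the 7 members, Fos, Jun, Jund and Atf3, had negative differences. Of the cytokine and surface genes with known NFAT and AP-1 sites, 6 were tested in CD8 cells, and 0 of 9 passed in CD4 cells. In CD8 Cd4CreTet2KO 0 of the 6 passed and 5 were negative, with a median of -1.08, beside -0.15 over all genes. The 11 listed genes summed to 41.2 to 151 RPKM there, against 171 to 277 in CD8 Tet2fl/fl and 124 to 251 in CD8 Vav1CreTet2KO. In CD8 Vav1CreTet2KO 4 of the 6 were negative, with a median of -0.17. In CD8 Vav1CreTet2KO 1 of the 6 rose, beside 0.45% of all genes. It was Cd40lg, the ligand through which helper T cells activate other immune cells, at 12.5, 10.9 and 7.82 RPKM in CD8 Vav1CreTet2KO against 0.0945, 1.35 and 0 in CD8 Tet2fl/fl, which limma put 3.04 higher on the log2 scale (SE 0.43, adjusted p = 0.00980). Cd4 was at 0.0955 to 1.59 RPKM in the same Vav1CreTet2KO libraries and at 0 in the Tet2fl/fl libraries, and the part of CD4 cells in the Cd40lg value was not tested.

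In CD8 against CD4 cells over the 3 genotypes, Maf was lower (-2.74, SE 0.21, adjusted p = 4.33e-08) and Batf3 was higher (1.42, SE 0.19, adjusted p = 8.64e-05) among 18 other basic leucine zipper factors, by limma. Of 27 other immediate early genes, 4 were lower in CD8 cells (Zfp36l1, Zfp36, Nfkbia and Nfkbiz) and Myc was higher. Of 13 MAP kinase phosphatases and feedback inhibitors, 1 was higher and 2 were lower. Of 7 cytokine and surface genes with known NFAT and AP-1 sites, 2 were higher and 2 were lower. Over all genes tested, 2.61% were called lower and 3.37% higher. The list genes named for this comparison were chosen after their values were seen, and those called in the MAP kinase and cytokine lists are not named here. None of the 7 AP-1 genes passed in that comparison.

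Heat shock genes, which share stress signals with AP-1, stood lower than in Tet2fl/fl in both knockouts and both cell types, as Jun did. Their 12 genes summed to 2169.5 to 2333 RPKM in CD8 Vav1CreTet2KO and 1638 to 2156 in CD8 Cd4CreTet2KO, against 3568 to 5029 in CD8 Tet2fl/fl. In CD4 cells the sums were 1494 to 2170.4 in Vav1CreTet2KO and 1632 to 2064 in Cd4CreTet2KO, against 3532 to 5510.3 in Tet2fl/fl. No knockout library reached a Tet2fl/fl library of its cell type. In Vav1CreTet2KO against Cd4CreTet2KO, 9 of the 12 were positive in CD8 cells (median 0.27) and 7 of 12 in CD4 cells (median 0.12). Jun was at -0.48 (limma, adjusted p = 0.721) and -0.59 (edgeR, adjusted p = 0.691) in these comparisons, and neither passed. Limma called 3 of 12 lower in CD8 Vav1CreTet2KO (Hspa1a -3.19, adjusted p = 0.0218, Hspa1b -3.26, 0.0288, and Hspb1 -2.33, 0.0420) and 1 of 12 in CD8 Cd4CreTet2KO (Hsph1 -1.60, 0.0441). Over all genes tested, 1.01% were called lower in CD8 Vav1CreTet2KO and 0.489% in CD8 Cd4CreTet2KO. EdgeR called 0 of 12 in CD4 cells, with 10 negative in Vav1CreTet2KO and 12 in Cd4CreTet2KO. The medians of the 12 there were -0.62 and -0.84, beside -0.16 and 0.00298 over all genes. Hspa1a and Hspa1b are near-identical copies whose reads may have been shared. Enzymes (collagenase A, DNase I) were used on all tumors to free the cells, and the part of heat shock signals in the values of Jun, Jund and Fos was not tested.

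Markers of other cells also differed between groups, in CD8 cells not only in Vav1CreTet2KO. The 8 dendritic cell markers summed to 493 to 1747 RPKM in CD8 Vav1CreTet2KO and 174 to 1371 in CD8 Cd4CreTet2KO, against 25.9 to 192 in CD8 Tet2fl/fl, with none at 0 in CD8 libraries. In CD4 cells they summed to 217 to 456 RPKM in Vav1CreTet2KO, with up to 2 at 0, and to 38.8 to 105 in Cd4CreTet2KO, against 39.8 to 110.1 in Tet2fl/fl. Macrophage and monocyte markers summed to 29.4 to 64.8 RPKM in CD4 Vav1CreTet2KO and 3.75 to 12.6 in CD4 Cd4CreTet2KO, against 1.86 to 59.7 in CD4 Tet2fl/fl. The CD4 Vav1CreTet2KO values thus overlapped with those of the controls. H2-Ab1 and H2-Aa were the largest parts of the dendritic cell sums, at 1256 and 419 RPKM in CD8 Vav1CreTet2KO replicate 1. Single markers differed: in CD8 Vav1CreTet2KO against CD8 Tet2fl/fl, Flt3 was at 8.71 to 17.3 against 0.591 to 2.65 RPKM. Zbtb46 was at 1.85 to 2.03 against 1.70 to 2.02. The part of cells other than T cells in the values of the 7 genes was not tested.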

How the data were processed

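RNA from sorted T cells was made into libraries with a kit for small amounts of total RNA, per the labels' protocols, and the submitters' processing notes name GRCm38 and mm10. Not given in the sources used here are the aligner, the counter, the build of the tables' coordinates and the use of strand. For CD4 cells the authors deposited read counts and RPKM per gene, and for CD8 cells RPKM, with fold changes, p-values and false discovery rates from their own comparisons. The deposited log2 fold changes are quoted only where named as the authors'. The RPKM are scaled to each library alone, so a change in a few abundant genes, or in the share of reads on genes, shifts the values of other genes. In all, 28 columns were used and 18 were not.

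CD4 counts were tested with edgeR 4.0.16 (quasi-likelihood, TMM, genes kept by its filter, whose minimum of 10 reads is scaled to library size). CD8 values and all fits across both cell types used limma 3.58.1 on log2(RPKM + 1), for genes at 1 RPKM or more in at least 3 libraries, in R 4.3.3. Fold changes on that scale understate those of low genes. For edgeR, the SE printed is the size of the log2 fold change divided by the square root of the F value of its test, and the intervals use it. A gene was called at a Benjamini-Hochberg adjusted p under 0.05 over all genes tested. Low RPKM values of the CD8 table were whole multiples of a smallest step in each library, taken as 1 read. In all, 100% of 134905 values above 0 came out whole within 0.01, so edgeR and DESeq2 1.42.0 were also run on those reads. Low numbers were mostly even except in CD8 Vav1CreTet2KO replicate 1. Whether the step was the same unit in every library, a read or a pair of reads, was not tested. The scripts were tested on simulated data. Replicates are separate animals. Named genes are the 7 members, the 5 genes most like each of Fos and Junb, and list genes that passed against Tet2fl/fl. Some of the list genes that passed between the cell types were added after their values were seen. Of the genes most like Junb, 1 is not reported here. The members and gene lists were chosen with earlier results of these data known.

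Pairing was checked by correlating deviations from group means. Libraries of the same animal gave r of -0.061 to 0.332 in 8 pairs, where the pairing comes from the animal numbers in the tables' column names. Equal replicate numbers within a cell type gave -0.0839 to 0.0996 in 18 pairs, so those numbers were not used to pair samples.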

Additional observations from a re-analysis of the deposited data

How the results depend on the processing

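Jun and Jund kept a negative sign against Tet2fl/fl in all 4 comparisons under every alternative run (0 reversed of 132), while 54 of 1218 member values over all comparisons changed sign, the largest of them 0.675. All knockout RPKM of Jun and Jund lay below all Tet2fl/fl RPKM. Leaving out a library could thus not reverse their RPKM differences. Dropping a library of an uncompared group or changing the filter also leaves most differences nearly as they were. The counts of alternatives therefore record the runs and do not measure how firm the signs are. The number of called AP-1 genes, 0 in each comparison, differed from 0 in 8 of 174 alternatives. In CD8 Vav1CreTet2KO against Tet2fl/fl it was 1 with DESeq2 on recovered reads and 0 to 1 when each library was left out. In CD8 Cd4CreTet2KO against Tet2fl/fl it was 1 with only the compared groups. In CD4 Vav1CreTet2KO against Tet2fl/fl it was 1 with DESeq2, 3 with no filter and 0 to 4 when each library was left out. In CD4 Cd4CreTet2KO against Tet2fl/fl it was 2 with no filter, and in CD4 Vav1CreTet2KO against Cd4CreTet2KO 0 to 1 when each library was left out. The cause was not tested.

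The fit with a replicate block called 0 members in every comparison, with Jun at -1.29 (adjusted p = 0.0997) in CD8 and Fos at -1.80 (0.154) in CD4 Vav1CreTet2KO. Within a cell type the block was the replicate number, which does not pair the samples. Across the cell types it was the animal, which does. Calls over all genes varied with the tool: in CD8 Vav1CreTet2KO against Tet2fl/fl limma called 46 higher and 103 lower, edgeR on recovered reads 40 and 51, and DESeq2 496 and 435. In CD4 Vav1CreTet2KO edgeR called 1 higher and 0 lower and DESeq2 328 and 247. In CD8 Cd4CreTet2KO the split was 8 and 50, and 22 and 50 with size factors, 36 and 28 with edgeR and 402 and 202 with DESeq2 on recovered reads, 8 and 5 with a pseudocount of 0.1, 54 and 232 with only the compared groups and 0 and 8 with no filter. It was 0 and 0 under the block, without both macrophage-rich libraries, and without Cd4CreTet2KO replicate 2, Tet2fl/fl replicate 1 or Tet2fl/fl replicate 3.

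Signs turned as follows. Atf3 in CD8 Vav1CreTet2KO against Tet2fl/fl was 0.0542 with edgeR and 0.0748 with DESeq2. In CD8 Cd4CreTet2KO against Tet2fl/fl, size factors, edgeR and DESeq2 gave Fos 0.00649, 0.043 and 0.0269, while edgeR and DESeq2 gave Fosl2 0.215 and 0.204 and Junb 0.0318 and 0.0189. Without both macrophage-rich libraries Fos was 0.162, Fosb 0.376, Fosl2 0.675 and Junb 0.428. Against Cd4CreTet2KO, Fos in CD8 Vav1CreTet2KO was -0.0839 with size factors, -0.141 with edgeR, -0.119 with DESeq2 and -0.333 without both, where Junb was -0.0517. In CD8 against CD4 cells, Fosb was 0.225 and Fosl2 0.33 without both, and Fosl2 0.000175 with the animal as block. The Cd4CreTet2KO difference between cell types without both was 0.322 for Fosb, 0.663 for Junb, 0.0779 for Jund and 0.066 for Atf3. Leaving out each library in turn gave Atf3 -0.963 to 0.492 and Fosl2 -0.912 to 0.0955 against Tet2fl/fl in CD8 Vav1CreTet2KO and Cd4CreTet2KO, Fos -0.098 to 0.143 and Atf3 -0.33 to 1.13 between the CD8 knockouts, and Atf3 -0.159 to 0.522 in CD4 Vav1CreTet2KO. For CD8 against CD4 it gave Fosb -0.221 to 0.0728, Fosl2 -0.199 to 0.137 and Jun -0.415 to 0.0108. For the differences between cell types it gave Atf3 -1.03 to 0.424 for Vav1CreTet2KO, and Junb -0.48 to 0.131 and Atf3 -0.516 to 0.384 for Cd4CreTet2KO. Depth limits CD4 Vav1CreTet2KO replicate 1 most.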
